A study of Mus musculus with 30 samples.

Results

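This account covers accessible chromatin at the boundaries of protein-coding genes in mouse CD4+ T cells. From the deposited table of 26 ATAC-seq libraries, every autosomal peak was taken whose midpoint lay within 1 kb of either end of a protein-coding gene body in the RefSeq annotation of GRCm38.p6 (mm10). There were 12126 such peaks among 69316, of which 67361 were autosomal. Where the strand of the gene was known, 8498 of them lay at the start of a gene body and 1267 at the other end and at no such start. They are here called gene-start and gene-end peaks. Of the gene-end peaks 32 lay within 1 kb of another listed start, and starts of genes of unknown strand were not screened out. The remaining 2361 lay beside genes whose strand was unknown, 299 of them on chromosome 18, and could not be split by side. The other 55235 autosomal peaks, inside or between genes, served for comparison. Of these, 3000 lay within 1 kb of another listed start, so the comparison class is not free of promoters.

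ATAC-seq measures open chromatin by letting a transposase cut accessible DNA and counting the fragments. The libraries came from mice (C57BL6/J where a strain is labelled) whose Foxp3 locus also drives a human CD2 reporter (hCD2), so that regulatory T cells (Treg, hCD2+) could be sorted from lymph nodes and spleen. There were 2 libraries in each of 13 groups. BATFKO Treg carried Foxp3-IRES-hCD2 with Batf-/-, and WT Treg (CD4+hCD2+) and WT Tconv (CD4+hCD2-) carried Foxp3-IRES-hCD2 alone. WT eTreg (CCR7lo, CD62Llo) and WT cTreg (CCR7hi, CD62Lhi, CD44lo) were effector and central Treg of that same reporter strain, and WT Teff and WT Tnaive were sorted through the same gates from hCD2- cells. Foxp3R397W Treg carried Foxp3R397W-IRES-hCD2 over Foxp3-IRES-GFP and were sorted as GFP-, so that the mutant allele was the one in use. Their control WT Treg carried Foxp3WT-IRES-hCD2 over the same GFP allele. DKO Treg lacked Foxp3 and Batf (Foxp3KO-IRES-hCD2.Batf-/-) and were sorted as CD45.2+CD45.1-GFP+Thy1.1+ hCD2+ cells after retroviruses carrying Foxp3 and BATF (Foxp3BATFRV), BATF (BATFRV), Foxp3 (Foxp3RV) or no factor (mockRV). The mock cells thus lacked both factors, and so does every transduced cell apart from what its virus supplied. The names of all DKO libraries also hold the word vivo. Libraries of a group are told apart by number alone, so p-values measure the spread between these libraries, which may be technical.

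A promoter at a gene start is where RNA polymerase II and the general factors assemble, and it is usually kept free of nucleosomes by sequence rich in CpG and by bound factors. Many promoters of vertebrates lie in CpG islands and are open in most cell types, while CpG-poor promoters tend to belong to genes with restricted expression. The gene end, where transcripts are cleaved and polyadenylated, has no such fixed open site, and an accessible region there can be an enhancer. Foxp3 is the lineage factor of Treg, and BATF is an AP-1 family factor that binds with JUN proteins, and with IRF4, in activated T cells.

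Before any result, a disagreement between the deposited tables must be stated. A second table holds 22 libraries, 18 of which could be recognised in the 26-library table by their values at 4478 identical peaks. Of these, 6 carried the same group name in both tables and 12 carried another. The libraries named eTreg, cTreg, Teff and Tnaive here are named there as control of Foxp3R397W Treg, Foxp3R397W Treg, Foxp3KO Treg and control of Foxp3KO Treg, and those named Foxp3R397W Treg and its control here are eTreg and cTreg there. Values below follow the names of the 26-library table, so every result on those 6 groups rests on them. The groups WT Treg, WT Tconv and BATFKO Treg have the same names in both. In the 22-library table under its own names, which also differs in its peaks, scaling and other libraries, 1.17% of gene-start peaks were called in eTreg against cTreg, 1.21% in Teff against Tnaive and 0% in both cTreg against Tnaive and eTreg against Teff, and 22.2% in Foxp3R397W Treg against its control. Treg against Tconv, whose libraries and names are the same in both tables, had 36.6% called there and 7.03% here, so that names are not all that differs. The labels do not settle which table is named correctly. Reads in peaks ran from 3716499 to 25462278 per library, and the median SE of a log2 change was 0.34. Cd3e, a chain of the T cell receptor complex, had a gene-start peak in all 26 libraries, with scores between 162 and 918 and no called difference. The gene-start peak of Il2ra, the high-affinity IL-2 receptor chain, ran from 229.8 to 453 and was called in no comparison, and Foxp3 lies on a sex chromosome and is outside this set.

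Accessibility at gene starts went with CpG content, and the sequences of a promoter with no called change and of one with many are shown for that reason. B2m encodes the light chain of MHC class I and Ifng encodes interferon gamma, a cytokine of effector T cells. Each sequence below runs from 250 bases before to 50 bases within the gene, as RefSeq gives it for GRCm38.p6, with CG pairs in capitals.
B2m, chr2:122147437-122147736, + strand: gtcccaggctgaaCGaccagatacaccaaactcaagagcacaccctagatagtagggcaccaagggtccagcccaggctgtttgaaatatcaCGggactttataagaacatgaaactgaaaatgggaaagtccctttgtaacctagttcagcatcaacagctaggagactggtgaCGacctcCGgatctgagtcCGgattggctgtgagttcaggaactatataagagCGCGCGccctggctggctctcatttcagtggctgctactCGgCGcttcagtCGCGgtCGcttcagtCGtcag
Ifng, chr10:118440796-118441095, + strand: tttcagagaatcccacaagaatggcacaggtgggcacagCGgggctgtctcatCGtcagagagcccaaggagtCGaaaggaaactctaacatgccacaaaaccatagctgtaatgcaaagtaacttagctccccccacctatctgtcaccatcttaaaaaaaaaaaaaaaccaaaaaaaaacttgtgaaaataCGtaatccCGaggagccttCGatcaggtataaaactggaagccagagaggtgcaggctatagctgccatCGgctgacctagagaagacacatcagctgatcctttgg
The B2m promoter held 14 CG pairs, an observed over expected ratio of 0.68, and the Ifng promoter held 7, a ratio of 0.44. The gene-start peak of B2m had scores between 561 and 1600 in the 26 libraries and was not called in any comparison. The Ifng peak ran from 9.07 in a Tnaive library to 386 in a Teff library.

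A pair of CpG-poor promoters is shown because their peaks followed BATF. Mmp10 encodes stromelysin-2, a secreted metalloproteinase, and Rdh1 a retinol dehydrogenase. Capitals mark TGANTCA, the AP-1 motif, which reads the same on either strand.
Mmp10, chr9:7502092-7502391, + strand: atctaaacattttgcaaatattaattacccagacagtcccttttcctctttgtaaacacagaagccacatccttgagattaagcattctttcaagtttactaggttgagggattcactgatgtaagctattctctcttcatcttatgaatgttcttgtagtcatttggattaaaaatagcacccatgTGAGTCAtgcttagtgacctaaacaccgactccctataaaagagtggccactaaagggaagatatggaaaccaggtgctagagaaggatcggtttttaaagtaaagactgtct
Rdh1, chr10:127759513-127759812, + strand: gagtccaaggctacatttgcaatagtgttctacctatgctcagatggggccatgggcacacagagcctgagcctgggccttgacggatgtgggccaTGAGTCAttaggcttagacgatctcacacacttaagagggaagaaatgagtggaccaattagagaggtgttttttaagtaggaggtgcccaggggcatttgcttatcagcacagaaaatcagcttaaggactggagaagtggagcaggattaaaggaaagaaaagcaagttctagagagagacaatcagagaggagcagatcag
The match lay 63 bases before the annotated start in Mmp10 and 154 bases before it in Rdh1, each inside the peak. Of the 8025 gene-start peaks matched to a RefSeq promoter sequence, 4.39% held TGANTCA in these 300 bases, against 7.06% of all 20085 listed promoters. The share was 3.22% at CpG-rich and 8.17% at CpG-poor gene-start peaks.

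Gene-start peaks were far higher than peaks elsewhere. Their median normalized score, averaged over the 26 libraries, was 329, with quartiles of 115 and 620, against 47.2 at gene ends and 40.5 at the other autosomal peaks. The median was 465 where the midpoint lay within 200 bp before the start (3594 peaks) and 314 within 200 bp after it (2479 peaks). It was 78.4 at 800 to 1000 bp before the start and 82.4 at the same distance after it. At gene ends the median stayed between 39.7 and 56.3 in every 200 bp step. The scores were not divided by length, and nearly all peaks had the same width, 401 bp.

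**Figure D1:**
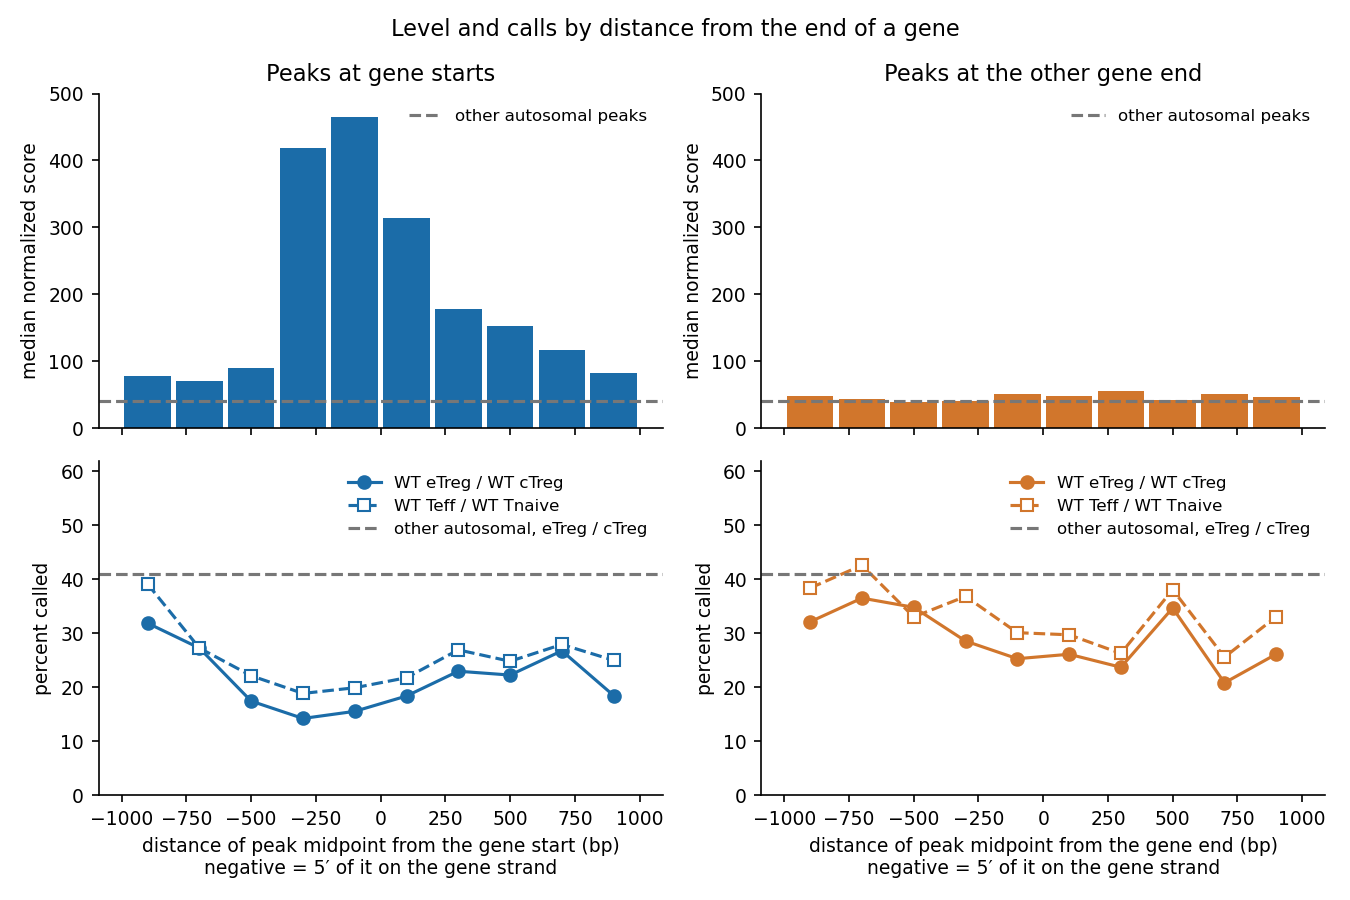
Median normalized score (top) and percent of peaks called (bottom) in steps of 200 bp from the gene start (left) and the other gene end (right), with the other autosomal peaks as a dashed line. Scores crowd just before the start, reaching a median of 465, and called shares are low within 400 bp before it, at 14.2% and 15.6% in eTreg against cTreg.

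Gene-start peaks also varied least. The median range of the 13 group means was 1.49 on the log2 scale at gene starts, 1.93 at gene ends and 2.43 at the other peaks. These groups mix libraries titled ATAC and omniATAC, so the range also holds any difference between protocols. In eTreg against cTreg, which share a protocol, the median absolute log2 change was 0.22, 0.46 and 0.70. Libraries of a group differed less at gene starts too, with a median SD of 0.20 log2 against 0.33 at gene ends and 0.36 elsewhere. The range and the median change also hold some of this spread between libraries, and neither was matched for the level of the peaks. In at least 1 of the 10 comparisons of groups, 2949 gene-start peaks (34.7%), 637 gene-end peaks (50.3%) and 37507 other peaks (67.9%) were called at a Benjamini-Hochberg adjusted p under 0.05 in limma, the test behind every adjusted p given here, with 2 libraries a group. Peaks at starts of genes on opposite strands, 820 in number, had a median score of 543, against 305 for the 7656 peaks at the start of 1 gene.

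CpG content split the gene-start peaks. With promoters called CpG-rich at an observed over expected ratio of at least 0.6, 6141 of the 8025 matched peaks (76.5%) were CpG-rich, against 48.9% of all listed promoters. CpG-rich gene-start peaks had a median score of 408, and CpG-poor ones 147. From the lowest to the highest step of the ratio, the median score went 72.4, 112, 224, 367, 430 and 433. The share called in eTreg against cTreg went 34.2%, 32.5%, 22.5%, 17.6%, 14.0% and 12.2%. By level, the share at gene starts fell from 37.1% at scores below 25 to 8.39% at 400 and above. CpG content was not compared within steps of level, so the part of each in the called share cannot be told apart here. Motifs of general promoter factors were counted in the same sequences. GGGCGG, the GC box, was in 68.9% of matched gene-start promoters and 47.0% of all listed promoters, and CCGGAAG, an ETS site, in 18.5% and 11.9%. TATAAA, the TATA box, was in 6.48% and 12.7%. Both strands were searched, and GGGCGG and CCGGAAG each contain a CG pair.

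**Figure D2:**
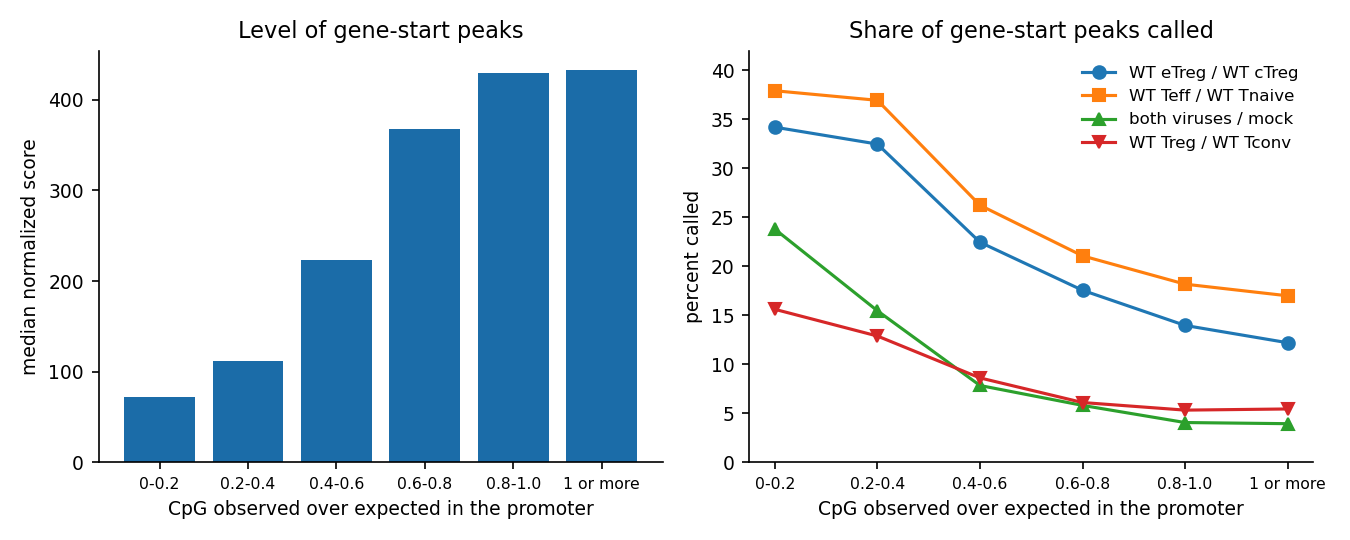
Gene-start peaks by the CpG observed over expected ratio of the promoter sequence, as median normalized score (left) and percent called in 4 comparisons (right). The score rises from 72.4 to 433 over the 6 steps, and the share called in eTreg against cTreg falls from 34.2% to 12.2%.

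The lower share of calls at gene starts was also seen within most steps of level. Among peaks with a mean score from 200 to 400, 15.1% of gene-start peaks, 29.3% of gene-end peaks and 39.6% of other peaks were called in eTreg against cTreg. At 400 and above the shares were 8.39%, 15.4% and 26.7%. Below 25, gene-start and other peaks were closer, at 37.1% and 38.8%, and gene-end peaks were at 25.5%. These shares are descriptions of the same libraries and carry no test between classes.

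The share of a library's peak reads that fell at gene starts ran from 32.8% to 43.5%. Foxp3BATFRV DKO Treg had 41.5% and 41.6%, and mockRV DKO Treg 42.6% and 43.5%. BATFKO Treg had 36.7% and 37.2%, and WT Treg 35.4% and 36.5%. WT Treg lay above WT Tconv, which had 32.8% and 33.0%. WT Teff had 36.1% and 34.9%, and WT Tnaive 33.9% and 33.3%. The groups of each of these pairs did not overlap. Nor did those of cTreg minus Tnaive, at 1.83 percentage points, and Foxp3R397W minus control Treg, at 1.21. The eTreg share was 0.23 points below that of cTreg, where the groups all but met, while Teff lay above Tnaive. The groups overlapped for eTreg against Teff, and for Foxp3 virus or BATF virus against mock virus. As 2 libraries against 2 cannot give an exact two-sided permutation p below 0.33, no test is given. The 12 libraries titled omniATAC held 38.8% to 43.5% at gene starts, and the 14 titled ATAC 32.8% to 37.2%. Both sides of every comparison share a protocol in the titles, and cell states are not compared across protocols here. With the names of the 22-library table the 2 protocols overlap, at 33.3% to 36.1% in omniATAC and 32.8% to 40.3% in ATAC libraries.

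**Figure D3:**
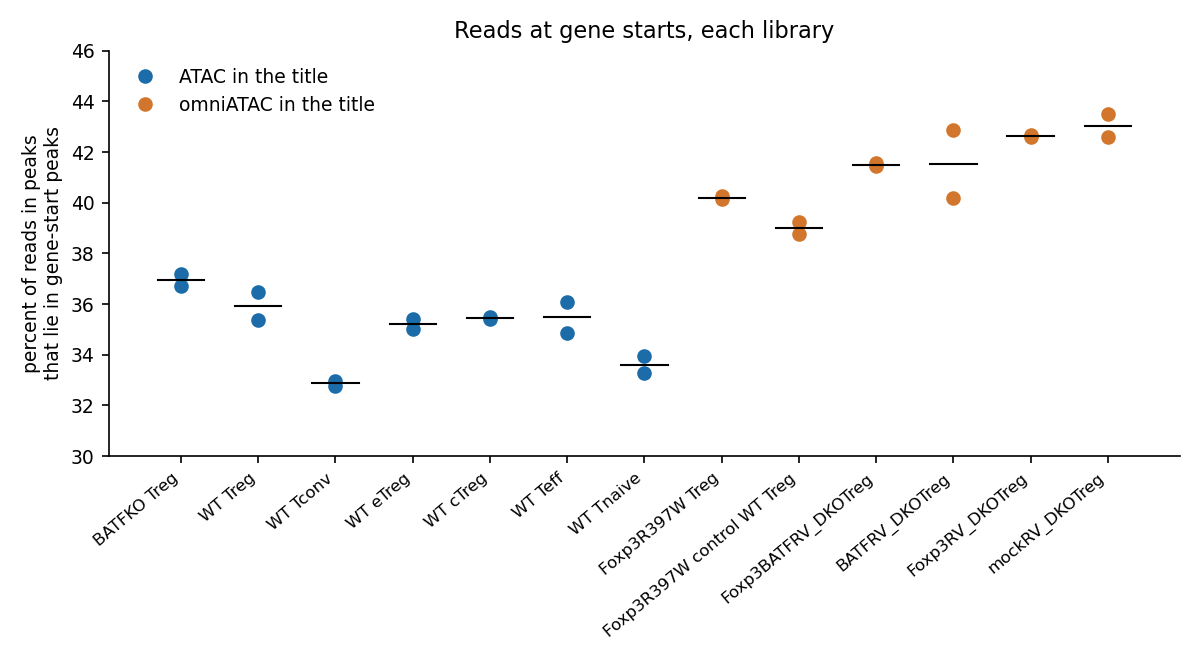
Percent of reads in peaks that lie in gene-start peaks, a dot per library and a bar at the mean of each group of 2. The libraries titled omniATAC lie at 38.8% and above, and those titled ATAC at 37.2% and below.

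In all 10 comparisons gene-start peaks were called less often than the other autosomal peaks, and in all 10 gene-end peaks lay between them. For eTreg against cTreg the shares were 18.3% at gene starts, 28.6% at gene ends and 40.9% elsewhere. The 3000 other peaks near another listed start had 30.8% called and a median score of 111. The rest had 41.5% called both inside and outside gene bodies, with median scores of 39.6 and 38.1. Bulk libraries cannot tell fewer open cells from less accessibility per cell. All fold changes are log2 differences of score + 1 with their SE, which understate the change of low peaks.

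**Figure D4:**
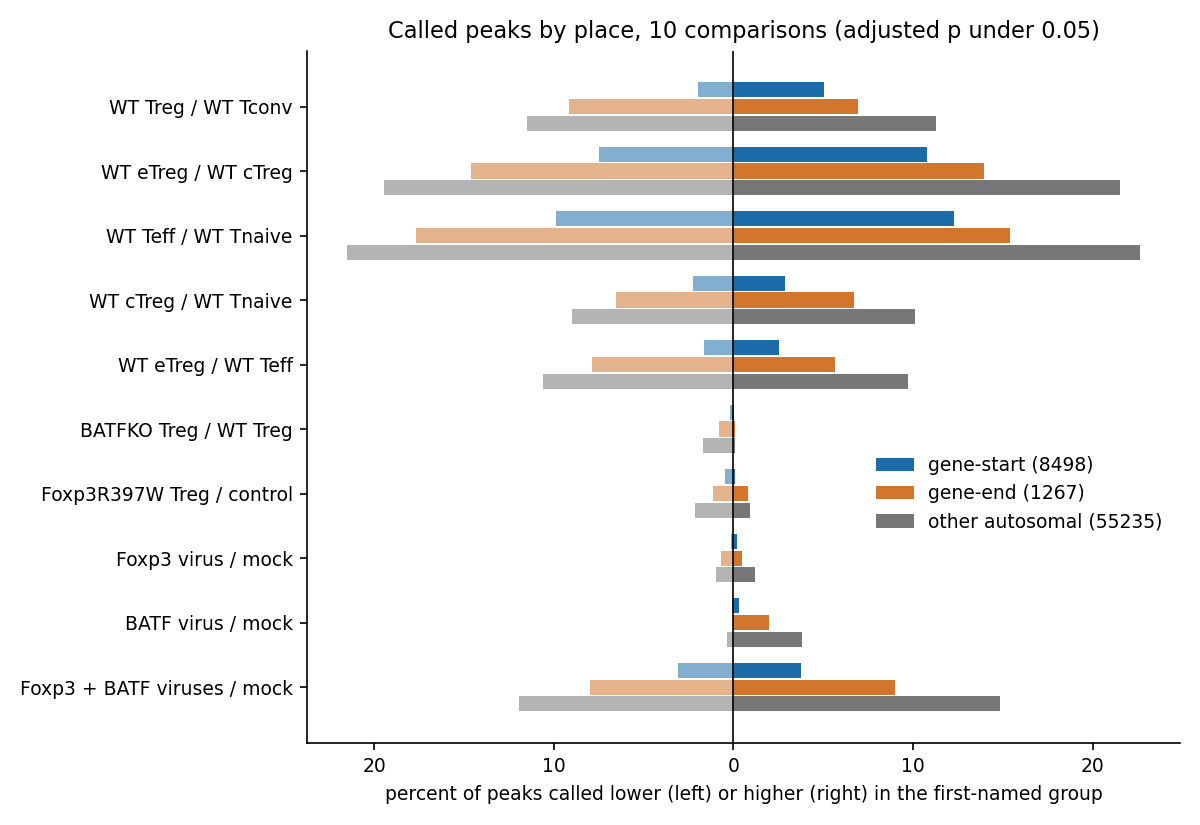
Percent of gene-start, gene-end and other autosomal peaks called lower (left of 0) or higher (right of 0) in the first-named group, for 10 comparisons. The gene-start bars are shorter than the grey bars throughout.

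The comparison of eTreg with cTreg asks how gene boundaries differ between Treg that have been activated and resting ones. In eTreg, 917 gene-start peaks were higher and 636 lower, against a background of 19.7% higher and 17.4% lower over all peaks. At gene ends 177 were higher and 185 lower. Higher gene-start peaks had a median score of 106 and lower ones 167, against 386 for those not called, and 488 of the higher ones changed by at least 2-fold. Without eTreg replicate 1 or 2, or cTreg replicate 1 or 2, 11.8%, 12.1%, 11.8% and 11.9% of gene-start peaks were called in place of 18.3%.

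Srxn1, which encodes the antioxidant enzyme sulfiredoxin, had gene-start scores of 206 and 201 in eTreg, against 4.44 and 7.71 in cTreg (log2 change 4.89 ± 0.37, adjusted p = 2.8e-11). B3galt1, a galactosyltransferase gene, had 347 and 382 in eTreg and 10.7 and 14.3 in cTreg (4.77 ± 0.29, adjusted p = 4.8e-13). Noxa1, an activator of NADPH oxidase, had 235 and 211 in eTreg and 7.11 and 7.71 in cTreg (4.73 ± 0.59, adjusted p = 6.0e-07). All 3 were near the floor of detection in cTreg, with no overlap. In eTreg B3galt1 lay above 329, the median score of gene-start peaks, and Srxn1 and Noxa1 below it. Il21, the gene of a helper cytokine, had 34.3 and 37.5 in eTreg and 3.55 and 0 in cTreg (4.11 ± 0.46, adjusted p = 3.5e-08). Tigit, an inhibitory receptor, rose to 902 and 844 in eTreg, against 352 and 343 in cTreg (1.33 ± 0.22, adjusted p = 1.8e-05). The Tigit start was thus open in both groups. Cebpa, a myeloid transcription factor, was higher by 3.07 ± 0.24 (adjusted p = 4.2e-11), with no overlap. Of 11 myeloid marker genes 3 had gene-start peaks (Cebpa, Cebpb, Itgam), with summed scores of 463 to 501 in eTreg and 90.4 to 103 in cTreg. The 2 of 10 B cell marker genes with such a peak summed to 94.8 to 96.4 in eTreg and 64.9 to 76.0 in cTreg. The part of these markers was not tested.

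Among gene-start peaks lower in eTreg, Ptger3, a prostaglandin E2 receptor, had 18.8 and 12.9 in eTreg and 204 and 179 in cTreg (-3.53 ± 0.29, adjusted p = 1.2e-10). Chil5, a chitinase-like gene, had 8.86 and 7.02 in eTreg and 80.9 and 94.8 in cTreg (-3.32 ± 0.29, adjusted p = 3.5e-10). Ccnjl, cyclin J-like, had 9.97 and 15.2 in eTreg and 126 and 129 in cTreg (-3.27 ± 0.30, adjusted p = 1.2e-09). Each was nearly closed in both eTreg libraries. Satb1, a chromatin organiser of developing and resting T cells, was lower at both ends. At its start the scores were 376 and 431 in eTreg and 725 and 650 in cTreg (-0.77 ± 0.19, adjusted p = 0.0015), while at its end (chr17:51735422-51735822) they were 9.97 and 19.9 in eTreg and 227 and 164 in cTreg (-3.68 ± 0.34, adjusted p = 1.3e-09). The promoter thus stayed open where the peak at the gene end was almost lost. Prf1, perforin, fell to 43.2 and 39.8 in eTreg, against 196 and 233 in cTreg (-2.33 ± 0.30, adjusted p = 4.4e-07). The 5 of 10 CD8 and NK cell marker genes with a gene-start peak summed to 208 to 234 in eTreg and 333 to 375 in cTreg. Their members were split: Klrb1c and Nkg7 were called higher in eTreg and Prf1 lower, with a median log2 change of 0.48. The part of these markers was not tested.

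Teff against Tnaive is the same step in conventional T cells and shares no library with eTreg against cTreg. In Teff 1044 gene-start peaks were higher and 840 lower, against a background of 20.7% and 19.6%, and at gene ends 195 were higher and 224 lower. Of the called gene-start peaks 55.4% were higher, and under quantile scaling 67.6%. Of the peaks higher in Teff, 613 were also higher in eTreg, which is 66.8% of the 917 eTreg peaks and 58.7% of the 1044 Teff peaks. The lower sets shared 396, or 62.3% and 47.1%. Opposite calls were rare: Gucy1a1 and Selenbp1 were higher in eTreg and lower in Teff, and Enthd1, Mgll, Nrp2, Rasa3 and Trim30c the reverse, genes named after their values were seen. Without Teff replicate 1 or 2, or Tnaive replicate 1, 14.5%, 14.4% and 14.7% of gene-start peaks were called in place of 22.2%. Without Teff replicate 1 the called gene-start peaks were balanced, with 617 of 1236 higher. The myeloid marker sum was 453 to 459 in Teff and 111 to 167 in Tnaive. Cebpa and Cebpb were called higher in Teff and Itgam lower, and the part of these markers was not tested.

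Serpina3g, a protease inhibitor of activated lymphocytes, had gene-start scores of 104 and 127 in Teff and 2.55 and 2.59 in Tnaive (5.02 ± 0.27, adjusted p = 1.2e-14). Ifng had 367 and 386 in Teff and 19.2 and 9.07 in Tnaive (4.73 ± 0.45, adjusted p = 1.9e-09). Nkg7, a membrane protein of cytotoxic granules, had 182 and 222 in Teff and 5.11 and 5.18 in Tnaive (5.04 ± 0.38, adjusted p = 1.1e-11). Both libraries of Teff were far above both of Tnaive in each. Tbx21, the T-bet gene of type 1 helper cells, rose to 71.4 and 65.5 in Teff, against 20.4 and 27.2 in Tnaive, at its main start peak (1.5 ± 0.32, adjusted p = 0.00042). On the other side, Dapk1, a death-associated kinase, had 41.8 and 42.1 in Teff and 333 and 371 in Tnaive (-3.04 ± 0.26, adjusted p = 1.4e-10). Grm6, a glutamate receptor gene, had 4.35 and 3.91 in Teff and 47.3 and 73.9 in Tnaive (-3.55 ± 0.31, adjusted p = 1.7e-10). A530021J07Rik had 32.2 and 40.1 in Teff and 245 and 293 in Tnaive (-2.86 ± 0.34, adjusted p = 7.7e-08). Grm6 was near the floor of detection in Teff, and the other 2 starts were low. At gene ends, Pakap fell to 21.8 and 39.1 in Teff, against 330 and 307 in Tnaive (-3.40 ± 0.33, adjusted p = 1.4e-09).

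The interaction term tests whether the effector step differs between Treg and conventional cells. It was called at 83 gene-start peaks, 35 larger and 48 smaller in Treg, and at 38 gene-end peaks, 16 and 22, against a background of 1.18% larger and 2.72% smaller. With a pseudocount of 5 the balance turned, with 62 of 113 gene-start and 26 of 49 gene-end peaks larger, and without cTreg replicate 1, 16 of 28 gene-end peaks were larger. Itgb8, integrin beta 8, which activates TGF-beta, had 582 and 610 in eTreg and 403 and 549 in cTreg, but 268 and 220 in Teff and 24.3 and 27.2 in Tnaive. The step was thus 2.85 ± 0.27 log2 smaller in Treg (adjusted p = 9.2e-08), with the cTreg promoter already open. Il12rb2, an IL-12 receptor chain, had 26.6 and 30.4 in eTreg and 132 and 163 in cTreg, but 171 and 218 in Teff and 224 and 206 in Tnaive (interaction -2.17 ± 0.31, adjusted p = 5.2e-05). Its start was low in eTreg alone among these 4 groups. Map2, a microtubule protein gene, had 290 and 362 in eTreg against 57.8 and 45.2 in cTreg, and 283 and 208 in Teff against 234 and 233 in Tnaive (interaction 2.58 ± 0.37, adjusted p = 5.2e-05). Here cTreg was the low group. Without eTreg replicate 1 or 2, cTreg replicate 2, or Teff replicate 1 or 2, 0.577%, 0.518%, 0.612%, 0.518% and 0.565% of gene-start peaks were called in place of 0.977%, and 1.89%, 1.97%, 1.66%, 1.89% and 1.34% of gene-end peaks in place of 3.00%.

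WT Treg against WT Tconv sets the whole Treg pool against the other CD4+ cells. At gene starts 429 peaks were higher in Treg and 168 lower, against a background of 10.1% and 9.92%, and at gene ends 88 were higher and 116 lower. The median log2 change over gene-start peaks was 0.13, against 0.01 over all peaks. Under quantile scaling 15.5% of gene-start peaks were called in place of 7.03%. Without WT Treg replicate 1 or 2, or WT Tconv replicate 2, 4.66%, 3.99% and 3.65% were called, and without WT Treg replicate 1 the share at gene ends was 8.84% in place of 16.1%.

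Itgb8 had 502 and 497 in Treg and 53.9 and 59.1 in Tconv (3.12 ± 0.19, adjusted p = 2.2e-12). Kcnk10, a potassium channel gene, had 230 and 182 in Treg and 22.9 and 13.6 in Tconv (3.46 ± 0.32, adjusted p = 4.8e-09). Hopx, an atypical homeodomain gene of induced Treg, had 152 and 192 in Treg and 11.4 and 20.4 in Tconv (3.39 ± 0.53, adjusted p = 8.5e-05). In none did the groups come near each other. Areg, the EGF receptor ligand amphiregulin, had 232 and 171 in Treg and 50.6 and 38.6 in Tconv (2.15 ± 0.26, adjusted p = 5.5e-07), and Tnfrsf4, OX40, had 213 and 262 in Treg and 88.2 and 109 in Tconv (1.26 ± 0.25, adjusted p = 0.00037). H1f8, known as the linker histone of oocytes, had 100.2 and 69.4 in Treg and 11.4 and 4.54 in Tconv at a peak 900 bp inside the gene (3.35 ± 0.40, adjusted p = 4.1e-07). At gene ends the peak of Vmo1 was called higher, with 29.3 and 39.8 in Treg and 3.27 and 0 in Tconv.

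Hemgn, hemogen, had 94.1 and 75.5 in Treg and 276 and 289 in Tconv (-1.73 ± 0.22, adjusted p = 6.9e-07). Ifng had 9.78 and 33.7 in Treg and 63.7 and 38.6 in Tconv (-1.39 ± 0.45, adjusted p = 0.027), so that its groups nearly met. The end of Olfr9, an olfactory receptor gene, had 53.8 and 66.3 in Treg and 367 and 352 in Tconv (-2.57 ± 0.22, adjusted p = 1.3e-09). Of 10 B cell marker genes 2 had a gene-start peak (Cd22, Ebf1), summing to 103 to 106 in Treg and 52.3 to 66.9 in Tconv. The CD8 and NK cell marker sum was 218 to 270.1 in Treg and 339 to 372 in Tconv, and the myeloid marker sum 189.9 to 191 in Treg and 149 to 157 in Tconv. Of the myeloid peaks, Cebpa was called higher in Treg and Itgam lower. The part of these markers was not tested.

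The remaining comparisons of sorted subsets share libraries with those above and are given for their own values. In cTreg against Tnaive, 245 gene-start peaks were higher and 192 lower, against a background of 8.80% and 7.82%, and at gene ends 85 and 83. Under quantile scaling 75.9% of the called gene-start peaks were higher, in place of 56.1%. Hopx had 71.1 and 82.7 in cTreg and 5.11 and 0 in Tnaive (4.97 ± 0.53, adjusted p = 7.0e-07), and Itgb8 and Myo1e, a myosin gene, were higher by 4.14 ± 0.19 and 3.33 ± 0.21 (adjusted p = 2.5e-15 and 5.0e-13). The end of Cish, an inhibitor of cytokine receptors, had 34.7 and 25.3 in cTreg and no read in either Tnaive library. Sp5, a zinc finger factor gene, had 13.3 and 12.1 in cTreg and 72.8 and 50.5 in Tnaive (-2.17 ± 0.32, adjusted p = 8.8e-06). The end of Nacc2 had 11.6 and 5.51 in cTreg and 79.2 and 85.5 in Tnaive (-3.20 ± 0.33, adjusted p = 1.4e-08). Without any single library of the pair, between 2.87% and 3.19% of gene-start peaks were called in place of 5.14%, and without cTreg replicate 1 or 2, 8.52% and 8.68% of gene-end peaks in place of 13.3%.

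In eTreg against Teff, 216 gene-start peaks were higher and 138 lower, against a background of 8.40% and 9.07%, and at gene ends 72 and 100. Noxa1 had 235 and 211 in eTreg and 22.6 and 30.3 in Teff (3.04 ± 0.59, adjusted p = 0.00057). Ctla4, the inhibitory receptor of Treg, had 513 and 600 in eTreg and 336 and 329 in Teff (0.74 ± 0.24, adjusted p = 0.030). Irf4, the partner factor of BATF, had 214 and 252 in eTreg and 156 and 150 in Teff (0.60 ± 0.18, adjusted p = 0.016). Il12rb2 and Ifng stood on the other side, at -2.72 ± 0.22 and -2.65 ± 0.45 (adjusted p = 7.3e-10 and 9.0e-05), and Csf2, GM-CSF, had 15.5 and 9.36 in eTreg and 47.9 and 42.1 in Teff (-1.81 ± 0.33, adjusted p = 0.00016). The CD8 and NK cell marker sum was 208 to 234 in eTreg and 505 to 627 in Teff, and its part was not tested. Leaving out any single library gave 1.89% to 2.44% of gene-start peaks called in place of 4.17%. At gene ends the share was 8.84% without eTreg replicate 1 and 7.89% without Teff replicate 2, in place of 13.6%.

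The loss of BATF was first checked at its own gene. The gene-start peak of Batf (chr12:85686411-85686811) had no read in either BATFKO library and scores of 265 and 312, 523 reads in all, in WT Treg. With a floor of 3 reads per library it was at least 106-fold lower in BATFKO Treg. In DKO Treg it had 0 to 2 reads in 7 of the 8 libraries and 8 in Foxp3RV replicate 2, BATFRV libraries included, so reads of a viral Batf gene were not seen at this promoter.

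Few gene boundaries were called in BATFKO Treg, and the balance of direction at gene starts rested on a library. At gene starts 18 peaks were lower and 3 higher (Slc43a1, Zfp972, Itgb1), against a background of 1.43% lower and 0.0620% higher. At gene ends 10 were lower and 1 higher (Nat10). These 0.247% and 0.868% of the classes compare with 1.78% of the other autosomal peaks. At an unadjusted p under 0.05 there were 275 of 8498 gene-start and 90 of 1267 gene-end peaks. With no change at all a share of 0.05 would be reached, and the gene-start share was below this and the gene-end share above. In edgeR 0.459% and 1.34% were called. Under quantile scaling the higher share of calls went to 32.8% at gene starts, in place of 14.3%, and to 37.9% at gene ends, in place of 9.09%. Without BATFKO replicate 2 the direction turned round at gene starts, with 18 of 23 called peaks higher in place of 3 of 21. Without WT Treg replicate 1 or BATFKO replicate 1, 0.0353% and 0.106% of gene-start peaks were called. Without WT Treg replicate 1 or BATFKO replicate 2, 0.158% and 0.552% of gene-end peaks were called.

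After Batf, the largest of these changes was at the end of Mmp10. The Mmp10 end peak (chr9:7509835-7510235, 207 bp inside the gene end) had 6.64 and 7.58 in BATFKO Treg and 308 and 248 in WT Treg (-5.10 ± 0.37, adjusted p = 2.8e-10). The Mmp10 start peak (chr9:7502017-7502417), over the AP-1 match printed above, had 2.77 and 2.53 in BATFKO Treg and 23.2 and 17.4 in WT Treg (-2.53 ± 0.57, adjusted p = 0.013). Rdh1 had 4.98 and 2.53 in BATFKO Treg and 33.0 and 10.2 in WT Treg (-2.09 ± 0.52, adjusted p = 0.030). Each was low in both BATFKO libraries, and WT Treg replicate 2 was lower than replicate 1. Tox2, an HMG-box factor gene, had 161 and 125 in BATFKO Treg and 336 and 282 in WT Treg (-1.11 ± 0.22, adjusted p = 0.0026). Lime1, an adaptor that binds Lck, had 24.9 and 27.8 in BATFKO Treg and 80.7 and 62.3 in WT Treg (-1.40 ± 0.37, adjusted p = 0.045). Emp1, a membrane protein gene with 2 matches of TGANTCA in its promoter, had 60.3 and 55.6 in BATFKO Treg and 161 and 147 in WT Treg (-1.40 ± 0.27, adjusted p = 0.0022). The 3 myeloid marker peaks, Cebpa among them, summed to 122 to 144 in BATFKO Treg and 189.9 to 191 in WT Treg. The B cell marker sum was 56.8 to 74.2 in BATFKO Treg and 103 to 106 in WT Treg. The part of either was not tested.

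BATFRV against mockRV gave 27 gene-start peaks higher and 7 lower, against a background of 3.20% higher, 0.291% lower and 3.49% in all, and 25 gene-end peaks higher and 0 lower. At an unadjusted p under 0.05 there were 328 of 8498 gene-start and 101 of 1267 gene-end peaks in both directions. The first share was below 0.05 and the second above. In edgeR 2 gene-end peaks were called lower. Without mockRV replicate 2, 0.200% of gene-start peaks were called in place of 0.400%, and 1.26% of gene-end peaks in place of 1.97%. Without BATFRV replicate 2, 1.10% of gene-end peaks were called, and the balance at gene starts turned round, with 10 of 28 called peaks higher in place of 27 of 34. The median log2 change with BATF virus was -0.11 over all gene-start peaks and -0.04 over all gene-end peaks. All 10 gene-end peaks lower in BATFKO Treg were among the 25 higher with BATF virus. At gene starts 8 peaks were shared, 44.4% of the 18 and 29.6% of the 27, namely those of Cass4, Ctla2b, Lime1, Mmp10, Rdh1, Tmigd1, Tox2 and Ugt1a6a. Of these 8 matched promoters 7 were CpG-poor and 5 held TGANTCA.

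The Mmp10 end had 276 and 289 with BATF virus and 4.22 and 6.84 with mock virus (5.47 ± 0.37, adjusted p = 7.1e-11). At the Mmp10 start BATF virus gave 39.6 and 27.8, 61 reads in all, and mock virus no read, at least 11.1-fold higher with a floor of 3 reads per library. Rdh1 had 23.5 and 19.2 with BATF virus and 3.16 and 3.91 with mock virus (2.30 ± 0.52, adjusted p = 0.0066). Both genes were raised over mock in both libraries. Tox2 had 263 and 322 with BATF virus and 89.6 and 90.9 with mock virus (1.68 ± 0.22, adjusted p = 4.4e-06), Il21 had 61.9 and 85.4 with BATF virus and 20 and 18.6 with mock virus (1.86 ± 0.46, adjusted p = 0.015), and H1f8 had 35.9 and 38.4 with BATF virus and 8.43 and 4.89 with mock virus (2.35 ± 0.40, adjusted p = 0.00029). Osgin1, a gene of the oxidative stress response, had 96.5 and 103 with BATF virus and 173 and 195 with mock virus (-0.87 ± 0.21, adjusted p = 0.012). Among the 17 matched promoters lower in BATFKO Treg, 14 were CpG-poor and 8 held TGANTCA, and among the 26 higher with BATF virus 17 were CpG-poor and 7 held it. With both viruses the AP-1 motif was in 22 of 286 matched promoters of higher peaks (7.69%), against 8.17% at CpG-poor gene-start peaks. A forkhead motif was in 3 of the 17 promoters lower in BATFKO Treg and 1 of the 26 higher with BATF virus. It was in 1 of 33 lower in Foxp3R397W Treg, 0 of 12 higher with Foxp3 virus and 2.23% of all matched promoters. The TATA box was in 4 of the 17 and 1 of the 26. These shares were not tested. No match says only that the letters of a motif are not in these 300 bases.

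Cass4, Rdh1, the Mmp10 start, Emp1 and the gene sets listed for BATFKO Treg were named after their values were seen, as were Il17a, Il17f and Serpina3f below. The peaks lower in BATFKO Treg were also nearly all higher in eTreg than cTreg, a comparison that shares no library with it: 17 of 18 at gene starts, against a background of 19.7%, and 10 of 10 at gene ends. The exception was Batf itself, with 374 and 290.3 in eTreg and 379 and 298 in cTreg. The Mmp10 end reached 1005 and 1030 in eTreg, against 8.89 and 5.51 in cTreg (6.99 ± 0.37, adjusted p = 3.1e-14).

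**Figure D5:**
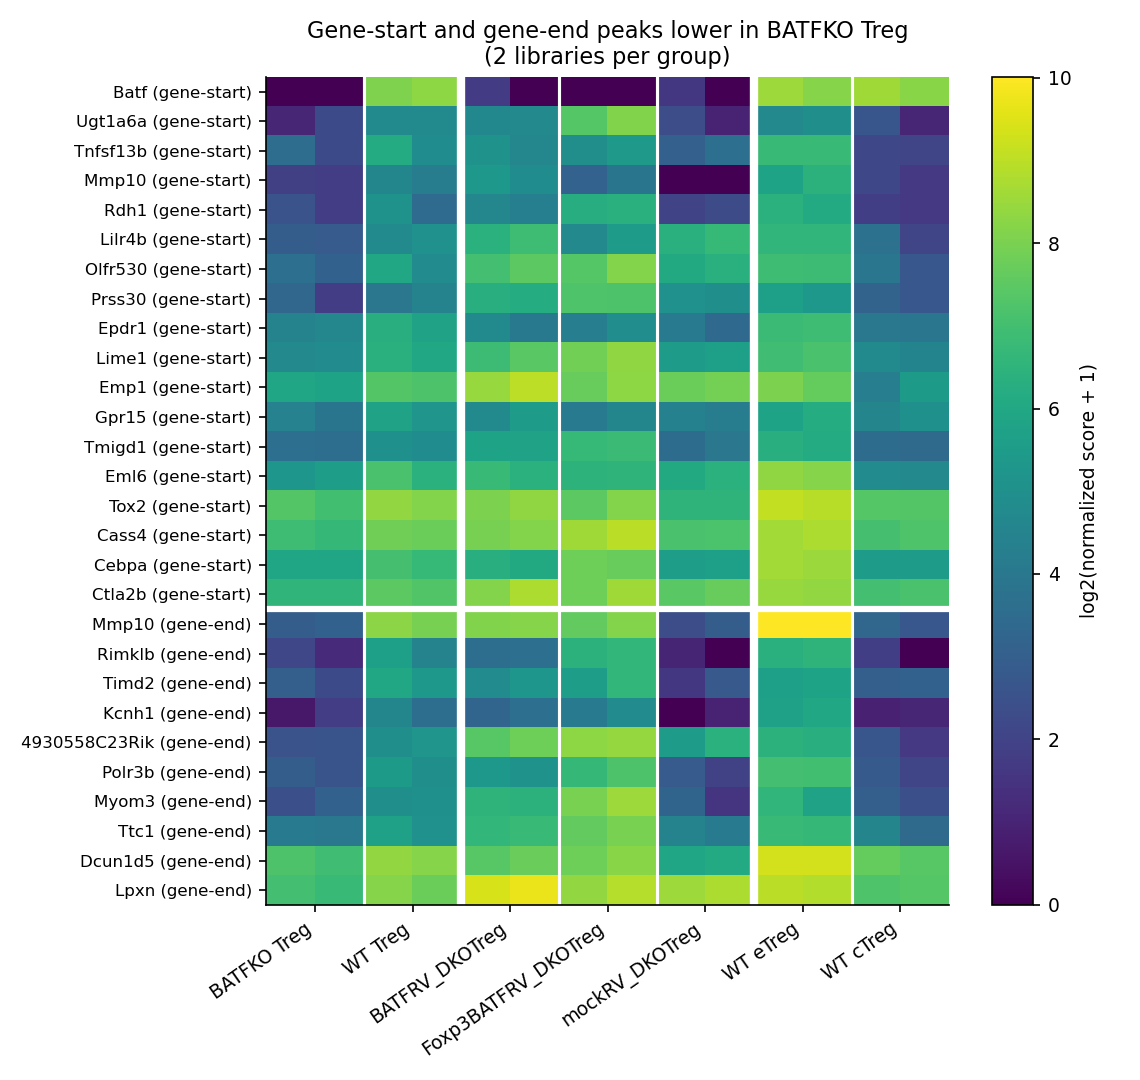
Log2 of normalized score + 1 at the 18 gene-start and 10 gene-end peaks lower in BATFKO Treg, a column per library. BATFKO columns are dark beside WT Treg, the BATF virus columns are brighter than mock for 8 of the gene starts and all 10 gene ends by the test, and eTreg is brighter than cTreg in all rows but Batf. Rows were chosen by the BATFKO comparison.

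Foxp3R397W Treg carry a mutation in the DNA-binding forkhead domain of Foxp3. At gene starts 39 peaks were lower and 9 higher, against a background of 1.85% lower, 0.776% higher and 2.63% in all, and at gene ends 14 were lower and 10 higher. The median log2 change was 0.10 over all gene-start peaks and 0.03 over all gene-end peaks. At an unadjusted p under 0.05 there were 290 of 8498 gene-start and 120 of 1267 gene-end peaks, a share below 0.05 at gene starts and above it at gene ends. The number of calls rested on the test: edgeR called 1.91% of gene-start and 7.26% of gene-end peaks, in place of 0.565% and 1.89%, and a pseudocount of 5 gave 0.859% and 3.00%. Without the first or second control library, or Foxp3R397W replicate 1 or 2, 0.0588%, 0.153%, 0.153% and 0.0824% of gene-start peaks and 0.316%, 0.552%, 0.316% and 0.395% of gene-end peaks were called.

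Serpina3g had 14.6 and 15.5 in Foxp3R397W Treg and 71.3 and 71.5 in control Treg (-2.17 ± 0.27, adjusted p = 2.6e-05), and its neighbour Serpina3f, a near copy whose reads may be shared, had 4.50 and 6 in Foxp3R397W Treg and 25.4 and 24.1 in control Treg (-2.05 ± 0.50, adjusted p = 0.022). Noxa1 had 25.3 and 24.0 in Foxp3R397W Treg and 129 and 163 in control Treg (-2.51 ± 0.59, adjusted p = 0.019). The end of Myom3, a muscle protein gene, had 18 and 14.1 in Foxp3R397W Treg and 102 and 78.9 in control Treg (-2.42 ± 0.49, adjusted p = 0.0051). All were lowered in both mutant libraries without reaching 0. Of the 39 lower gene-start peaks 38 were higher in eTreg than cTreg, and so were 13 of the 14 gene-end peaks, against the 19.7% of all peaks. Il17f and Il17a, cytokine genes of type 17 helper cells, went the other way. Il17f had 21.9 and 22.2 in Foxp3R397W Treg and 1.09 and 1.34 in control Treg (3.39 ± 0.77, adjusted p = 0.013), and Il17a had 18.6 and 16.2 in Foxp3R397W Treg and 1.45 and 0.669 in control Treg (3.18 ± 0.89, adjusted p = 0.047). Control Treg had 5 reads at each, so the size of these changes is poorly known. Pou2af1, a coactivator of OCT factors, had 544 and 563 in Foxp3R397W Treg and 285 and 303 in control Treg (0.91 ± 0.19, adjusted p = 0.0055). The myeloid marker sum was 196 to 232 in Foxp3R397W Treg and 300.2 to 303 in control Treg, and its part was not tested.

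Foxp3 virus alone moved few gene boundaries. Foxp3RV against mockRV gave 15 gene-start peaks higher and 9 lower, against a background of 1.01% higher, 0.814% lower and 1.82% in all, and 6 gene-end peaks higher and 9 lower. At an unadjusted p under 0.05 there were 297 of 8498 gene-start and 120 of 1267 gene-end peaks, again a share below 0.05 at gene starts and above it at gene ends. Under quantile scaling 3 gene-start peaks were called, all lower, and 4 gene-end peaks, 3 of them higher, in place of 6 of 15. Without Foxp3RV replicate 1 or 2, the called gene-start peaks were mostly lower, with 10 of 47 and 3 of 7 higher in place of 15 of 24, and without mockRV replicate 1 or 2, or with a pseudocount of 5, 12 of 16, 4 of 5 and 10 of 16 gene-end peaks were higher. The B cell marker sum was 81.7 to 92.1 with Foxp3 virus and 46.9 to 54.8 with mock virus, and H2-Eb1 and Tnfrsf13b, also known from B cells, were among the 15. Their part was not tested. Without mockRV replicate 2, Foxp3RV replicate 2 or Foxp3RV replicate 1, 0.0353%, 0.0824% and 0.553% of gene-start peaks were called in place of 0.282%, and without either of the first 2, 0.395% and 0.474% of gene-end peaks in place of 1.18%.

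Sdc4, the proteoglycan syndecan-4, had 200.1 and 163 with Foxp3 virus and 68.5 and 64.5 with mock virus (1.43 ± 0.36, adjusted p = 0.034). Kcnk10 had 61.3 and 58.3 with Foxp3 virus and 36.9 and 14.7 with mock virus (1.32 ± 0.32, adjusted p = 0.028), and Itgb8 had 179.6 and 167 with Foxp3 virus and 87.5 and 113 with mock virus (0.79 ± 0.19, adjusted p = 0.028). Kcnk10 was the gene start shared between the 39 peaks lower in Foxp3R397W Treg and the 15 higher with Foxp3 virus, 2.56% and 6.67% of these sets. Emp1 had 80.7 and 90.6 with Foxp3 virus and 217 and 243 with mock virus (-1.42 ± 0.27, adjusted p = 0.0043). Pou2af1 had 285 and 335 with Foxp3 virus and 539 and 667 with mock virus (-0.95 ± 0.19, adjusted p = 0.0058), and Cxcr6, a homing receptor, had 66.7 and 127 with Foxp3 virus and 183 and 229 with mock virus (-1.14 ± 0.26, adjusted p = 0.017). Pou2af1 was thus higher in Foxp3R397W Treg and lower with Foxp3 virus, each against its own control.

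With both factors, 320 gene-start peaks were higher than with mock virus and 262 lower, against a background of 12.9% higher, 10.5% lower and 23.3% in all, and 114 gene-end peaks were higher and 101 lower. The 3 virus groups share the mock libraries, so their sets are not compared. In edgeR, 324 gene-start peaks were higher and 513 lower, so that the balance turned: 38.7% of the calls were higher, in place of 320 of 582. There the median change over all peaks was -0.11 log2, against -0.04 in limma, and over gene-start peaks -0.20 against -0.13. Without mockRV replicate 1 or Foxp3BATFRV replicate 2 the balance also turned, with 256 of 560 and 195 of 412 higher. At gene ends 79 of 183 under quantile scaling and 122 of 249 in edgeR were higher, in place of 114 of 215. Without mockRV replicate 2, 3.42% of gene-start and 11.2% of gene-end peaks were called in place of 6.85% and 17.0%. Of the 320 higher gene-start peaks 195 (60.9%) were higher in eTreg than cTreg, which is 21.3% of the eTreg set.

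H1f8 had 171 and 202 with both viruses and 8.43 and 4.89 with mock virus (4.65 ± 0.40, adjusted p = 8.4e-10). Havcr2, the inhibitory receptor TIM-3, had 217 and 341 with both viruses and 19.0 and 46.9 with mock virus (3.14 ± 0.60, adjusted p = 0.00027). The end of Myom3 had 257 and 375 with both viruses and 8.43 and 1.96 with mock virus (5.88 ± 0.49, adjusted p = 3.7e-10). Areg had 257 and 267 with both viruses and 121 and 106 with mock virus (1.21 ± 0.26, adjusted p = 0.00090). All but Areg were low in mock cells. Tcf7, the TCF1 gene of resting T cells, fell to 70.9 and 40.3 with both viruses, against 164 and 192 with mock virus, at its higher start peak (-1.71 ± 0.25, adjusted p = 5.6e-06). Slc43a1, an amino acid transporter gene, had 25.2 and 54.1 with both viruses and 137 and 213 with mock virus (-2.18 ± 0.26, adjusted p = 2.2e-07). Tnf had 141 and 135 with both viruses and 259 and 265 with mock virus (-0.92 ± 0.21, adjusted p = 0.0013). Ebf1 and Cd22, B cell markers, summed to 116 to 139 with both viruses and 46.9 to 54.8 with mock virus. The myeloid marker sum was 279 to 300.01 with both viruses and 94.9 to 139.8 with mock virus. The part of either was not tested.

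Genes with gene-start peaks were also grouped by function. Of 20 Treg identity genes 11 had a gene-start peak, 12 peaks in all. Of these peaks 4 were higher in Treg than Tconv and 5 higher in cTreg than Tnaive, with none lower in either. Izumo1r gave 2 of the peaks in each. In eTreg against cTreg 2 were higher (Ebi3, Izumo1r) and 2 lower (Gpr83, Nrp1), in Teff against Tnaive 4 and 2, and in eTreg against Teff 5 and 0. None was called in BATFKO Treg, in Foxp3R397W Treg or with any virus. Gpr83, an orphan receptor gene, had 481 and 377 in Treg and 240.02 and 241 in Tconv (0.82 ± 0.18, adjusted p = 0.00094). Of 20 naive and central genes 13 had peaks, 14 in all. In eTreg against cTreg 5 of these were lower (Actn1, Dapl1, Igfbp4, Satb1, Tcf7) and 1 higher (Foxp1), in Teff against Tnaive 7 were lower and 1 higher, and with both viruses 5 were lower and 0 higher. Of 13 effector cytokine genes 9 had 10 peaks. Ifng, Il2, Il21 and Il5 were higher in eTreg and Csf2 and Lta lower, and with both viruses Ifng, Il2, Lta and Tnf were lower. Of 13 glycolysis genes 9 had 11 peaks, and 4 were higher in Teff than Tnaive (Eno1, Gpi1, Hk2 at 2 separate peaks) and 0 lower. Of 22 effector Treg genes 12 had a peak: 3 were higher in Treg than Tconv and 3 in eTreg than cTreg, while 7 were higher in Teff than Tnaive and 1, Irf4, lower. The 16 ribosomal protein peaks were called once (Rps24, higher in Treg), and the 14 chromatin regulator peaks were called 2 times, both lower. The background shares of each comparison are those given above, and small lists say little against them.

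Genes called at 1 end alone outnumbered those called at both ends. The joint counts were not set against the number that the separate shares of each end would give, so they do not show whether the ends moved apart. Among 925 genes with a peak at both ends, 28 were called higher at both in eTreg against cTreg and 19 lower at both, while 18 were called in opposite directions, 123 at the start alone and 188 at the end alone. In Teff against Tnaive these counts were 36, 32, 25, 106 and 208. More genes had a called peak inside the body than at the start, but a gene can hold several body peaks, so this is no rate per peak. Among 4768 genes with a start peak and a peak inside the body, 1837 had a body peak higher in eTreg. Of these 276 (15%) had a start peak higher as well, while 473 of all 4768 genes had one. Read the other way, 58.4% of the 473 genes with a higher start had a higher body peak, while 1837 of all 4768 genes had one. For peaks lower in Treg than Tconv the share of body genes with a lower start was 3.06%, and 101 of all 4768 genes had a lower start. Of the 1267 gene-end peaks 667 lay inside a gene body and 32 lay within 1 kb of another listed start.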

How the data were processed

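ATAC-seq and omniATAC-seq libraries were compared from the signal table that the authors deposited, 1 column per library and 69316 peaks, 99.7% of them 401 bp wide. Per the submitters' processing notes, the build was mm10 and the tools were an aligner (Bowtie2 2.4.1), a peak caller (MACS2 2.2.7.1) and, for comparing peaks, DiffBind in version 3.0.15 or 3.4.11 with edgeR in version 3.36.0 or else 3.38.4. Tool settings: not given in the sources used here. Each deposited signal value, called the normalized score, was a whole read count divided by 1 factor per library: 100.0% of values came out whole to within 0.02 reads, so that read totals between 3716499 and 25462278 could be recovered. No per-sample columns were left unmapped; the columns of the Foxp3R397W control carry no sample number and were read as that control from their name.

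Gene bodies came from RefSeq (GRCm38.p6); strand was known for 16457 of 20665 autosomal protein-coding bodies (79.6%), from the listed promoter sequences, and for none on chromosome 18. A peak near a start and an end counted as gene-start. Scores were tested as log2(score + 1) with limma 3.58.1 in R 4.3.3 (moderated with trend and robust variance, 13 groups of 2 in a single fit, 13 residual degrees of freedom), Benjamini-Hochberg adjusted over all 69316 peaks. The test was checked on simulated data. Other tables used Python 3.11.15.

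Genes were named by a rule: per comparison the 3 largest changes in each direction among called gene-start peaks above the median level of all peaks and without overlap of groups, the largest gene-end peak in each direction, a set of 24 genes of T cell biology, the 2 gene-start peaks of smallest adjusted p in each list, and for the interaction the 2 of smallest p in each direction. Members, gene lists and this rule were chosen with earlier results of these data known. Alternatives were quantile scaling, edgeR 4.0.16 quasi-likelihood on the recovered reads, a pseudocount of 5, a minimum mean score of 10, a window of 500 bp, a replicate block, the 22-library table and leaving out each library.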

Additional observations from a re-analysis of the deposited data

Results flagged for a closer look

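The step from central or naive to effector cells differed between Treg and conventional T cells, by the interaction term in limma, at 18 of the named peaks. The naming rule used the same libraries and the interaction itself, so this count does not show how common such a difference is. The interaction was called at 3.91% of all peaks, 0.977% of gene-start peaks and 3.00% of gene-end peaks. A negative value means a smaller rise, or a larger fall, in Treg. At gene starts it was -3.99 log2 for Nkg7, -2.85 for Itgb8, -2.69 for Ifng, -2.62 for Samd3, -2.59 for Myo1e, -2.17 for Il12rb2, -2.08 for Ptger3, -1.65 for Csf2, -1.41 for Serpina3g and -1.07 for Fam71b. It was 2.58 for Map2, 2.30 for Sp5, 2.18 for Gm21814, 2.02 for Olfr530 and 1.82 for Gpr15. At gene ends it was 3.24 for Nacc2, -1.55 for 4930486L24Rik and -2.76 for Cish, whose value depends on the pseudocount because both Tnaive libraries had no read. Gm21814 had 332 and 363 in eTreg against 213 and 234 in cTreg, and 84.5 and 97.8 in Teff against 257 and 279 in Tnaive. All 18 rest on the group names of the 26-library table.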

How the results depend on the processing

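Shares of gene-start peaks called are given first and of gene-end peaks second. Under quantile scaling they were 15.5% at gene starts in Treg against Tconv, 0.718% and 2.29% in BATFKO against WT Treg, 0.0353% and 0.316% with Foxp3 virus, 0.247% at gene starts with BATF virus and 1.73% at gene starts for the interaction. In edgeR they were 0.459% and 1.34% in BATFKO against WT Treg and 1.91% and 7.26% in Foxp3R397W Treg, where a pseudocount of 5 gave 0.859% and 3.00%. A window of 500 bp gave 1.82% at gene ends with Foxp3 virus and a median level of 374 at gene starts. In the 22-library table, which differs in peaks, scaling and libraries as well as in names, they were 36.6% at gene starts in Treg against Tconv, 1.17% and 3.34% in eTreg against cTreg, 1.21% and 3.98% in Teff against Tnaive, 0% and 0% in cTreg against Tnaive and in eTreg against Teff, and 22.2% and 32.4% in Foxp3R397W Treg. The cause was not tested.

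Without 1 library, the shares ran from 3.65% to 4.97% and 8.84% to 11.9% in Treg against Tconv, 11.8% to 12.1% and 20.8% to 22.6% in eTreg against cTreg, 14.4% to 15.2% and 22.8% to 26.4% in Teff against Tnaive, 2.87% to 3.19% and 8.52% to 9.55% in cTreg against Tnaive, and 1.89% to 2.44% and 7.89% to 9.94% in eTreg against Teff. They ran from 0.0353% to 0.271% and 0.158% to 0.868% in BATFKO Treg, 0.0588% to 0.153% and 0.316% to 0.552% in Foxp3R397W Treg, 0.0353% to 0.553% and 0.395% to 1.74% with Foxp3 virus, 0.200% to 0.494% and 1.10% to 1.58% with BATF virus, 3.42% to 6.59% and 11.2% to 14.9% with both, and 0.518% to 0.871% and 1.34% to 2.68% for the interaction. The difference in the share of peak reads at gene starts ran from -0.885 to 0.343 percentage points for eTreg minus Teff, above 0 without Teff replicate 1, in place of -0.27. It ran from -0.860 to 0.056 points for Foxp3 virus minus mock virus, above 0 without mock replicate 2, in place of -0.40.

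Same-numbered libraries deviated together only weakly (correlations of 0.0435 to 0.204 over 9 comparisons), and the numbers are not said to mark a shared animal or day. With the replicate block 0.282% of gene-start peaks were called in BATFKO Treg, 17.8% in eTreg against cTreg and 7.81% with both viruses; no block was possible for Foxp3R397W Treg. At named peaks, 407 tests were called in the main fit and only these were looked at again. Of them 391 kept their call in edgeR, 400 with a pseudocount of 5 and 376 under quantile scaling. None turned round there or with 1 library left out. Many of these peaks were named for large or clear changes in the same libraries, so the counts do not measure how firm calls are in general. Depth limits peaks of a few reads most, such as Il17a and Il17f.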
